A study of Macaca fascicularis with 16 samples.

Results

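PCP4, NKAIN2, PTP4A1 and DPYSL5 are 4 genes that were chosen because their transcripts stood high in the infrarenal libraries of this same series, and they make up 4 of the 32846 rows of the deposited count files. Their high infrarenal level is therefore how they were picked and is described here without a test. The libraries were made from total RNA of the aortas of cynomolgus monkeys (Macaca fascicularis) described as young and normal, all labelled as baseline, with 4 libraries each from the infrarenal, suprarenal, descending and ascending aorta. The infrarenal and suprarenal segments lie below and above the renal arteries, and the descending and ascending segments lie in the chest. The title of the series ties NOTCH3, a Notch receptor of vascular smooth muscle, to the way elastic fibres spread in the infrarenal wall. No deletion, transgene or drug is labelled for any library. Nothing in the labels says that a region's libraries are separate animals, and the p-values below then measure only how far these libraries spread, which may be technical in part. The labels also do not say whether libraries of the same number share an animal, and the main test does not pair them.

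The 4 genes come from unrelated families. PCP4 encodes a small peptide with an IQ motif that binds calmodulin and speeds its exchange of calcium, and it is best known from Purkinje neurons. NKAIN2 encodes a membrane protein of a family named for its interaction with the Na/K ATPase, the pump that sets the sodium and potassium gradients of the cell and so bears on the tone of smooth muscle. PTP4A1, also called PRL1, encodes a prenylated phosphatase of a family that binds the CNNM magnesium transport proteins. DPYSL5, also called CRMP5, encodes a collapsin response mediator protein, one of a family of cytosolic proteins that bind tubulin and act downstream of semaphorins in growing axons.

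Values are CPM, TMM-normalized counts scaled to a library of 1e6 counts, which compare libraries for the same gene but not different genes, since no transcript length enters them. Total counts per library, in units of 1e6, ran from 14.4 to 21.41. A count of 3, used as the floor below which a level is not read, corresponded to 0.143 to 0.231 CPM depending on the library. Infrarenal replicate 1 stood apart, with a TMM factor of 0.736 against 0.977 to 1.08 in the other 15 libraries. Its top 10 genes held 12.6% of its counts, against 5.88% to 8.19% in other libraries. Chi-square per degree of freedom between its counts and those of infrarenal replicates 2 to 4 was 252 to 294. Among replicates 2 to 4 it was 35.9 to 50.5. The infrarenal means of the 4 genes and the lists of genes closest to them are also given without infrarenal replicate 1. Markers of smooth muscle were abundant everywhere, with all 8 listed genes tested and a summed level of 21416 to 56411 CPM in the infrarenal libraries, 13133 to 32906 in suprarenal, 25413 to 28887 in descending and 17334 to 35606 in ascending libraries. The highest of these sums belonged to infrarenal replicate 1, and infrarenal replicates 2 to 4 held 30181, 21416 and 26342 CPM. The lowest belonged to suprarenal replicate 3 and the next to ascending replicate 4. Ascending replicate 4 also held 1024 CPM of mesothelial markers, against 114 to 162 CPM in the other ascending libraries. NOTCH3 itself averaged 458 ± 49.6 CPM in infrarenal, 216 ± 41.7 in suprarenal, 142 ± 64.2 in descending and 56.3 ± 12.2 in ascending libraries (SD, n = 4 each).

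PCP4 (NCBI GeneID 102142583) was close to an on and off pattern. Infrarenal replicates 1 to 4 held 11.4, 4.88, 2.82 and 5.09 CPM, from 148, 81, 43 and 90 counts. The 4 suprarenal libraries held 0, 2, 0 and 1 counts, the descending libraries 0, 0, 0 and 3, and the ascending libraries 0, 0, 0 and 1. All 4 infrarenal libraries thus lay above all 12 others, of which the highest reached 0.166 CPM, and replicate 1 was the highest among the infrarenal ones. The region means were 6.05 ± 3.72 CPM in infrarenal, 0.0387 in suprarenal, 0.0416 in descending and 0.0151 in ascending libraries, and the last 3 rest on 1 to 3 counts each. As ratios of summed counts per summed library size, the infrarenal region exceeded the suprarenal by 135-fold (95% exact interval 45.7 to 656), the descending by 130-fold (44.2 to 635) and the ascending by 378-fold (67.4 to 14966), where the intervals cover counting error only. Without infrarenal replicate 1 the same ratios were 100.4 (33.9 to 491), 97.2 (32.8 to 475) and 282 (50 to 11183), and the infrarenal mean was 4.26 CPM. Because the gene reached 10 counts in 4 libraries, all infrarenal, it passed the filter on low counts through that region alone. Whether fewer cells made PCP4 or each cell made less cannot be told apart in RNA from whole tissue, and the same holds for the other genes.

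NKAIN2 (GeneID 102117837) was high in the infrarenal, lower in the suprarenal and descending and close to 0 in the ascending libraries. The infrarenal libraries held 36.7, 46.9, 33.9 and 36.4 CPM, the suprarenal 5.57, 27.5, 3.11 and 1.89, the descending 3.30, 3.61, 1.82 and 0.665, and the ascending 0, 0.123, 0.121 and 0.302. The 4 infrarenal libraries were the highest, suprarenal replicate 2 came next and stood well above the other 3 suprarenal libraries, and those 3 overlapped the descending ones. Every ascending library lay below every descending one. The means were 38.5 ± 5.79, 9.52 ± 12.1, 2.35 ± 1.37 and 0.137 ± 0.124 CPM from the infrarenal to the ascending region (SD, n = 4 each), and the ascending libraries held 0, 2, 2 and 5 counts, so that only ascending replicate 4 was above the floor. The infrarenal mean was 4.04 times the suprarenal and 16.4 times the descending mean, and 10.9 times the suprarenal mean without suprarenal replicate 2. Against the 9 ascending counts, the ratio of summed counts per summed library size was 280.2 (95% exact interval 147 to 614), and without ascending replicate 4, which leaves 4 counts, it was 470.4 (183 to 1728).

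PTP4A1 (GeneID 107126363) was present throughout and showed the smallest contrast. Its infrarenal libraries held 121.9, 103.4, 89.3 and 87.4 CPM, its suprarenal libraries 58.2, 59.5, 33.6 and 58.05, its descending libraries 43.3, 45.5, 49.7 and 50.3, and its ascending libraries 46.7, 51.6, 48.2 and 47.3. The infrarenal libraries did not overlap any other, while the other 3 regions overlapped one another and suprarenal replicate 3 was the lowest of all. The means were 100.5 ± 15.96 CPM in infrarenal, 52.3 ± 12.5 in suprarenal, 47.2 ± 3.39 in descending and 48.4 ± 2.197 in ascending libraries (SD, n = 4 each), which makes the infrarenal mean 1.92, 2.13 and 2.08 times the suprarenal, descending and ascending means. Scaled by library totals alone, the infrarenal values were 89.7, 103.2, 94.6 and 90.6 CPM, so that replicate 1 was no longer the highest. Without that replicate the infrarenal mean was 93.4 CPM for PTP4A1, 39.1 CPM for NKAIN2 and 19.1 CPM for DPYSL5.

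DPYSL5 (GeneID 102136498) was high in the infrarenal region and uneven in the others. Infrarenal libraries held 19.6, 15.2, 25.3 and 16.7 CPM. Suprarenal libraries held 0.186, 10.3, 1.97 and 1.83 CPM, descending libraries 0.550, 0.301, 0.121 and 1.72, and ascending libraries 0.313, 0.309, 1.76 and 6.94. The infrarenal libraries again lay above all others, the nearest being suprarenal replicate 2 and then ascending replicate 4, and the other 3 regions overlapped. The means were 19.2 ± 4.45 CPM in infrarenal, 3.57 ± 4.55 in suprarenal, 0.673 ± 0.719 in descending and 2.33 ± 3.15 in ascending libraries (SD, n = 4 each), and in each of the last 3 the SD exceeded the mean. One library decided each of these ratios. The infrarenal mean was 5.38 times the suprarenal mean and 14.5 times it without suprarenal replicate 2, 28.5 times the descending mean and 59.2 times it without descending replicate 4, and 8.24 times the ascending mean and 24.2 times it without ascending replicate 4. The descending libraries held 9, 5, 2 and 31 counts, with replicate 3 under the floor, so the ratios to them are rough and have no interval.

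**Figure D1:**
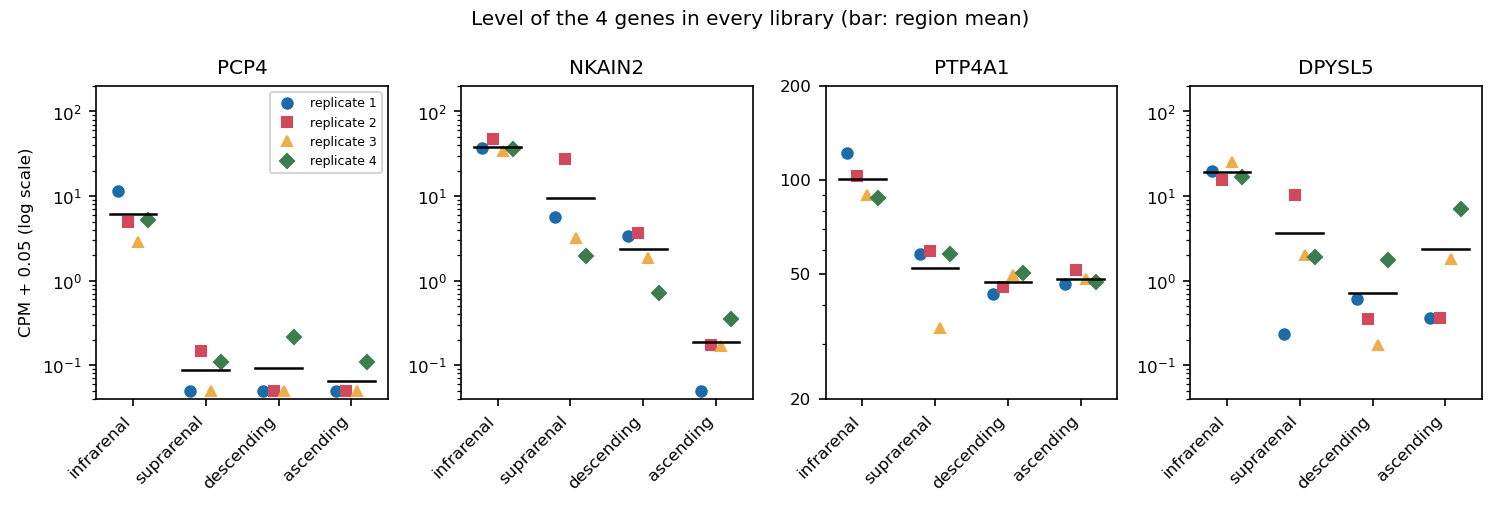
CPM of PCP4, NKAIN2, PTP4A1 and DPYSL5 in each of the 16 libraries (points) by region, with the region mean as a black bar. The vertical axes are logarithmic after 0.05 CPM was added, and the PTP4A1 panel has a narrower range. In each panel the 4 infrarenal points lie above the other 12, and suprarenal replicate 2 is the highest of those 12 for NKAIN2 (27.5 CPM) and DPYSL5 (10.3 CPM).

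On the scale of the model, the infrarenal mean exceeded the mean of the other 3 regions by 7.29 (SE 0.61) log2 units for PCP4, 4.70 (SE 0.54) for NKAIN2, 3.42 (SE 0.72) for DPYSL5 and 1.03 (SE 0.13) for PTP4A1. The median difference over all 15926 genes tested was 0.03. In that comparison 2.98% of the genes tested were called in either direction and 1.37% were called higher, and the 4 genes were taken from among genes of high infrarenal level, so nothing is read from their place among them. The fitted value for PCP4 depends on how genes with almost no counts are treated and was 8.20 without descending replicate 4, the library with 3 of the 7 counts outside the infrarenal region.

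The choice of the genes did not use the differences among the suprarenal, descending and ascending regions, and these could be tested. The question here is whether the genes also varied along the aorta above the infrarenal segment. NKAIN2 was the only one of the 4 to be called in any of these pairs. It was higher in the suprarenal than in the ascending region by 6.04 (SE 0.96) log2 units, with an adjusted p of 0.0114 over all genes in the quasi-likelihood test of edgeR. The suprarenal and ascending libraries did not overlap, and 0.17% of all genes tested (27 of 15926) were called higher in that comparison. Lack of overlap between 4 and 4 libraries has an exact permutation p of 0.0286, before any adjustment. The share of all genes without overlap was not counted, so nothing is read from it. Leaving out suprarenal replicate 2 gave a difference of 4.60 with an adjusted p of 0.00795. The call was lost without ascending replicate 2 (adjusted p = 0.0653), without ascending replicate 3 (0.0674), when only the 8 libraries compared were fitted (0.132) and with limma voom (0.240).

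Between the descending and the ascending region NKAIN2 differed by 4.02 (SE 0.96) log2 units, which did not pass the adjusted test (adjusted p = 0.168). These libraries did not overlap either, and the share of all genes without overlap was not counted here. NKAIN2 was called by DESeq2 (adjusted p = 0.000565) and in 1 of the 16 fits without 1 library, the one without suprarenal replicate 2 (0.0219), while the other such fits reached 0.447 and limma voom gave 0.711. In that pair 0.113% of the genes tested were called, 0.0879% as higher and 0.0251% as lower. Between the suprarenal and the descending region the NKAIN2 difference was 2.02 (SE 0.71), with an unadjusted p of 0.0122 and an adjusted p of 1.00, and the libraries overlapped. No gene of the 15926 was called in that pair by edgeR, DESeq2 or limma voom, while 264 had an unadjusted p under 0.05 in edgeR. The order of the NKAIN2 means, infrarenal, suprarenal, descending and ascending, thus has a middle step that lies within the spread of the libraries.

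PTP4A1 and DPYSL5 passed no test among the 3 upper regions. PTP4A1 differed by 0.15 (SE 0.17) between the suprarenal and descending regions, by 0.11 (SE 0.17) between the suprarenal and ascending and by -0.04 (SE 0.17) between the descending and ascending regions, with adjusted p-values of 1.00, 1.00 and 0.956. These errors are the smallest of the set, and the last difference changed sign without descending replicate 1. For DPYSL5 the same differences were 2.39 (SE 1.07), 0.62 (SE 0.99) and -1.77 (SE 1.07), with adjusted p-values of 1.00, 1.00 and 0.802. Differences of this size could not be told from the spread between libraries, and the suprarenal to ascending difference turned to -0.81 without suprarenal replicate 2. PCP4 had at most 3 counts in any of the 12 libraries, at or under the floor, so no fold is given for it and differences among these regions were not detectable at this depth. The order of the suprarenal, descending and ascending regions was not resolved for PTP4A1 or DPYSL5.

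**Figure D2:**
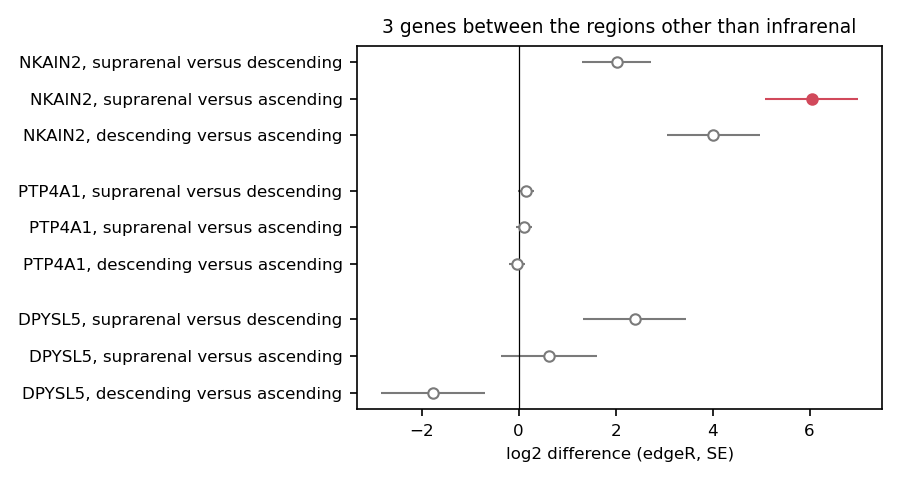
Log2 differences (points) with their SE (bars) for NKAIN2, PTP4A1 and DPYSL5 in the 3 pairs of regions that hold no infrarenal library, from the edgeR fit of all 16 libraries. Filled points passed an adjusted p of 0.05, which is the case for NKAIN2 between the suprarenal and ascending regions (6.04), while the PTP4A1 differences lie within 0.15 of 0.

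The 4 genes were also set against one another. Across the 16 libraries the Pearson correlations of log2 CPM were 0.93 for PCP4 with PTP4A1, 0.81 for PCP4 with DPYSL5, 0.74 for PCP4 with NKAIN2, 0.71 for NKAIN2 with PTP4A1, 0.71 for PTP4A1 with DPYSL5 and 0.65 for NKAIN2 with DPYSL5. These values hold the difference between the infrarenal and the other libraries by which the genes were picked, and the 16 points share it. After the region means were taken out, the correlations were 0.52 for PCP4 with PTP4A1, 0.49 for PCP4 with DPYSL5, 0.32 for NKAIN2 with DPYSL5, 0.17 for NKAIN2 with PTP4A1, -0.02 for PCP4 with NKAIN2 and -0.04 for PTP4A1 with DPYSL5. Those of PCP4 rest on 12 libraries with at most 3 counts and are not read further. Suprarenal replicate 2, high for NKAIN2 and DPYSL5, held 59.5 CPM of PTP4A1, close to the 58.05 and 58.2 CPM of replicates 4 and 1, and 2 counts of PCP4. Ascending replicate 4 was high for DPYSL5 within its region, while its PTP4A1 level of 47.3 CPM lay among the other ascending libraries.

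The genes whose log2 CPM followed each of the 4 most closely over the 16 libraries were then listed. They were looked for among 13415 genes (13416 for PCP4) whose log2 CPM averaged 0 or more, and the correlations describe these libraries only. For NKAIN2 the closest were HOXA9 (r = 0.98), HOXC9 (0.97), HOXA10 (0.97) and HOXC4 (0.96), homeobox transcription factors of the kind that mark position along the body axis, and TENM3 (0.95), a teneurin of the cell surface. HOXA9 averaged 44.4 ± 7.18 CPM in infrarenal, 11.03 ± 10.1 in suprarenal, 3.51 ± 1.40 in descending and 0.137 ± 0.150 in ascending libraries (SD, n = 4 each). The ascending libraries held 1, 1, 1 and 6 counts of HOXA9 and 0, 0, 0 and 1 of HOXC9, mostly under the floor. Suprarenal replicate 2, the library with high NKAIN2, held 25.8 CPM of HOXA9 against 3.78 to 9.01 in the other suprarenal libraries, 8.13 CPM of HOXC9 against 0.886 to 2.54, and 13.3 CPM of HOXA10 against 2.66 to 5.71. With the region means taken out, r was 0.79 for HOXA9 and 0.82 for HOXC9, which then stood in the third and the first place among all genes compared, and 0.60 for HOXA10, 0.60 for HOXC4 and 0.57 for TENM3, which stood in places 58, 63 and 86. These values include the ascending libraries, where NKAIN2 had 0, 2, 2 and 5 counts. They also lean on suprarenal replicate 2, whose NKAIN2 deviation of 2.29 log2 units was the largest of the 16 libraries. The r of deviations was not computed without that library. Leaving out infrarenal replicate 1 kept 4 of the 5.

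For DPYSL5 the closest genes were XK (r = 0.94), which encodes a membrane protein known from red blood cells, SORBS2 (0.93), an adaptor of the actin cytoskeleton, TBX2 (0.92), a T-box transcription factor, ESAM (0.91), an adhesion molecule of endothelial cells, and LSMEM2 (0.90). SORBS2 averaged 369 ± 125 CPM in infrarenal, 79.5 ± 58.3 in suprarenal, 22.3 ± 12.6 in descending and 44.8 ± 51.4 in ascending libraries (SD, n = 4 each). Suprarenal replicate 2 held 147 CPM of SORBS2 and 4.69 CPM of XK, the highest of its region, and 34.8 CPM of TBX2 and 212 of ESAM, below the 39.9 and 261 CPM of suprarenal replicate 3. Ascending replicate 4 held 119 CPM of SORBS2, 2.41 of XK, 37.5 of TBX2 and 203 of ESAM, each the highest of the ascending libraries. The summed endothelial markers ran from 750 to 2672 CPM in infrarenal, 542 to 3336 in suprarenal, 733 to 1028 in descending and 484 to 1931 in ascending libraries. The highest ascending sum belonged to replicate 4 and the highest suprarenal sum to replicate 3, and suprarenal replicate 2 held 834 CPM. The part of endothelial cells in the DPYSL5 levels was not tested. With the region means taken out, r was 0.87 for XK, 0.81 for SORBS2, 0.78 for TBX2, 0.76 for ESAM and 0.70 for LSMEM2. The largest DPYSL5 deviations were -2.63 and 2.45 log2 units in suprarenal replicates 1 and 2 and 2.49 in ascending replicate 4. These r values lean on those libraries and were not computed without them. Without infrarenal replicate 1, 4 of the 5 remained among the closest 5 and LSMEM2 (r = 0.89) did not.

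For PCP4 the closest were LGALSL (r = 0.93), a galectin-like protein, PTP4A1 (0.93), OPN3 (0.90), an opsin, COL8A1 (0.88), a short-chain collagen of vessel walls, and WFDC1 (0.88). For a gene at the floor in 12 of 16 libraries this mainly ranks genes by the split between infrarenal libraries and the rest, and with the region means taken out r was 0.67 for LGALSL, 0.60 for WFDC1, 0.52 for PTP4A1, 0.47 for OPN3 and 0.29 for COL8A1. Only 2 of the 5 remained among the closest 5 without infrarenal replicate 1. For PTP4A1 they were MCAM (0.91), an adhesion molecule of smooth muscle and endothelium, MAGED2 (0.90), LGALSL (0.90), LOC102132360 (0.89) and DSTN (0.88), which encodes the actin-depolymerizing protein destrin. MCAM averaged 1870 ± 217 CPM in infrarenal, 1112 ± 464 in suprarenal, 826 ± 37.2 in descending and 694 ± 100.6 in ascending libraries (SD, n = 4 each). Suprarenal replicate 3, the lowest library for PTP4A1, was also the lowest for MCAM at 586 CPM and had the lowest sum of smooth muscle markers, whose part in the PTP4A1 value was not tested. With the region means taken out, r was 0.90 for DSTN, 0.83 for MAGED2, 0.80 for MCAM, 0.61 for LOC102132360 and 0.43 for LGALSL. The largest PTP4A1 deviation was -0.60 log2 units in suprarenal replicate 3, and these r values were not computed without it. Without infrarenal replicate 1, which held 4273 CPM of DSTN, 4 of the 5 remained and DSTN (r = 0.81) did not.

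**Figure D3:**
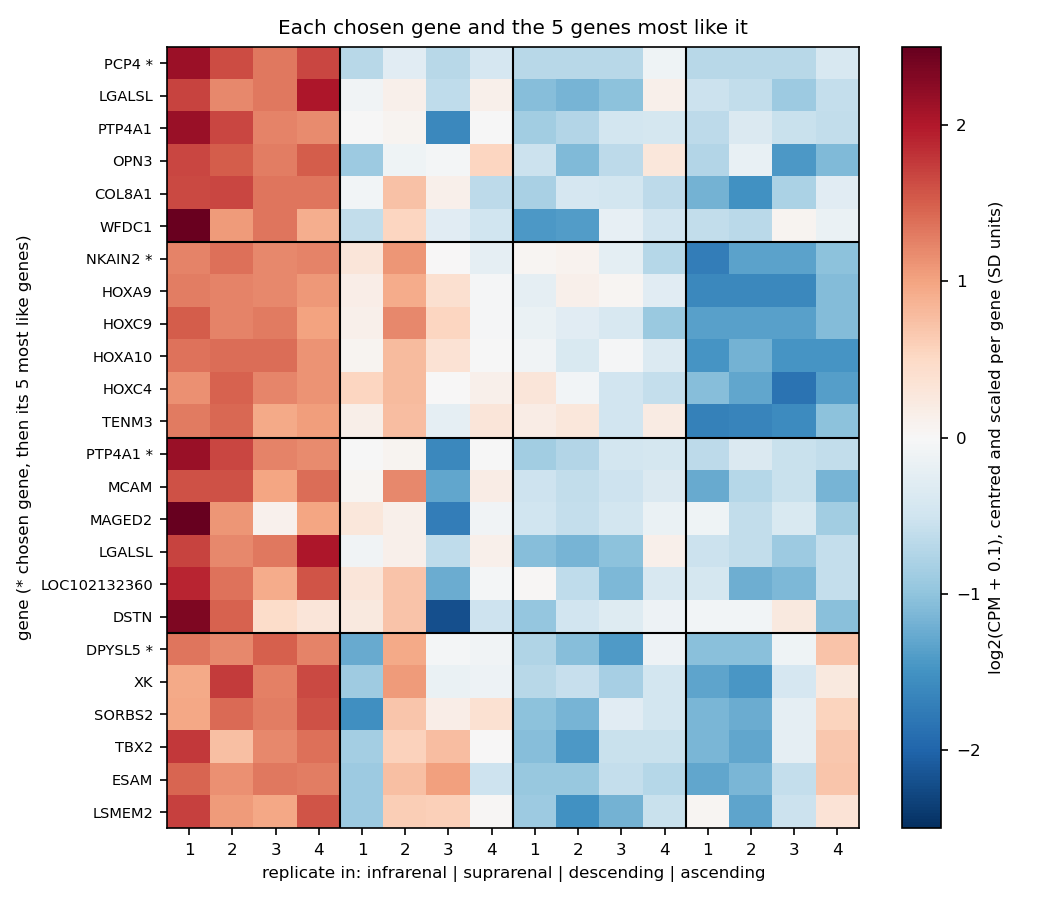
Heat map of the 4 genes and, below each, the 5 genes with the highest Pearson r, over the 16 libraries in columns with the infrarenal libraries first. Colour is log2(CPM + 0.1), centred and scaled within each gene, so it shows the pattern over libraries and not the level. Suprarenal replicate 2 is red in the rows of NKAIN2 and DPYSL5, where r of the closest gene is 0.98 and 0.94.

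No relative or partner of the 4 genes was called higher in the infrarenal region by edgeR, and 7 were called lower. The lists covered 90 genes, all present in the files, of which 80 were tested. Their infrarenal difference from the other regions was positive for 40 and negative for 40, with a median of -0.00 against 0.03 over all genes. The 0 called higher and 7 called lower stand beside 1.37% and 1.61% of all genes tested. At an unadjusted p under 0.05 in edgeR, 9 were higher and 12 lower, beside 2185 of all 15926 genes tested in either direction. DESeq2 called 1 higher, FARP2, a guanine nucleotide exchange factor of plexin signalling with a mean of 23.9 CPM in infrarenal libraries and of 18.3, 18.6 and 16.01 CPM in suprarenal, descending and ascending libraries, and it called 9 lower. limma voom called 0 higher and 7 lower.

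Among the collapsin response mediators, none of the 4 paralogs of DPYSL5 was called higher, and CRMP1 and DPYSL4 were lower in the infrarenal region. CRMP1 held 0.617, 0.782, 3.80 and 0.849 CPM in infrarenal libraries 1 to 4, against 10.8 to 46.1 CPM in the other 12 libraries, with no overlap. Its difference was -3.91 (SE 0.58) log2 units with an adjusted p of 0.00135. DPYSL4 averaged 2.72 ± 0.417 CPM in infrarenal, 6.09 ± 1.05 in suprarenal, 8.36 ± 2.45 in descending and 7.53 ± 2.97 in ascending libraries (SD, n = 4 each), a difference of -1.42 (SE 0.27) with an adjusted p of 0.00696. DPYSL3, the member with the most counts, averaged 837 ± 95.6 CPM in infrarenal, 807 ± 278 in suprarenal, 922 ± 43.2 in descending and 767 ± 217 in ascending libraries, and DPYSL2, the founding member, averaged 150, 189, 209 and 251 CPM in the same order. Neither passed the test, at differences of 0.01 (SE 0.21) and -0.51 (SE 0.16) and adjusted p-values of 0.990 and 0.104. CRMP1 and DPYSL5 thus stood in opposite order between the infrarenal and the other libraries.

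In the wider semaphorin list, 30 genes were tested and 18 had positive and 12 negative differences, with a median of 0.10. By edgeR 4 were called lower, while 1.61% of all genes tested were called lower. DESeq2 called 1 higher and 6 lower in this list. Beside CRMP1 and DPYSL4 the edgeR calls were PLXNB3, a plexin receptor, and SEMA3C, a secreted semaphorin. PLXNB3 held 1.31, 1.93, 2.23 and 1.36 CPM in the infrarenal libraries, and its regional means were 1.71 ± 0.446 CPM in infrarenal, 7.67 ± 1.82 in suprarenal, 10.4 ± 2.39 in descending and 19.0 ± 9.05 in ascending libraries (SD, n = 4 each). The difference was -2.74 (SE 0.33), with an adjusted p of 0.000244. SEMA3C averaged 61.4 ± 18.8 CPM in infrarenal, 121 ± 42.6 in suprarenal, 279 ± 50.4 in descending and 191 ± 69.5 in ascending libraries, a difference of -1.60 (SE 0.29) with an adjusted p of 0.00485. Infrarenal and other libraries of SEMA3C overlapped, since suprarenal replicate 2 (66.0 CPM) and ascending replicate 4 (87.6 CPM) lay below infrarenal replicate 4 (88.0 CPM).

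Of the genes around NKAIN2, 11 of 18 could be tested, with 5 positive and 6 negative differences and a median of -0.24. By edgeR 1 was called, as lower, while 1.61% of all genes tested were called lower. That call was ATP1B1, the beta 1 subunit of the Na/K ATPase. It held 9.02, 12.2, 20.4 and 15.4 CPM in the infrarenal libraries, 55.2, 27.1, 27.2 and 42.6 in suprarenal, 64.3, 65.9, 64.1 and 63.0 in descending and 117, 120, 121 and 65.8 in ascending libraries. The infrarenal libraries were below all others, and ascending replicate 4 lay at the descending values and far below the other ascending libraries. The infrarenal difference was -2.16 (SE 0.25) with an adjusted p of 0.000244, and ATP1B1 was also lower in the suprarenal than in the ascending region, at a difference of -1.48 (SE 0.27) and an adjusted p of 0.0345. It was the only one of the 80 called in that pair by edgeR, where 0.0879% of the genes tested were called lower. The regional order of ATP1B1 means was thus the reverse of that of NKAIN2. The paralog NKAIN1 averaged 6.53, 5.32, 4.41 and 3.30 CPM from the infrarenal to the ascending region and did not pass the test (0.62, SE 0.26, adjusted p = 0.286), while NKAIN3 and NKAIN4 held 81 and 11 counts over all libraries and were not tested.

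The calmodulin list, the setting of PCP4, had 30 of 32 genes tested, 13 with positive and 17 with negative differences and a median of -0.09. By edgeR 2 were called, both lower, while 1.61% of all genes tested were called lower. CAMK2B, the beta subunit of the calcium and calmodulin-dependent kinase II, held 8.48, 3.19, 4.13 and 4.02 CPM in the infrarenal libraries and averaged 4.95 ± 2.39 CPM there, against 20.2 ± 7.16 in suprarenal, 32.9 ± 7.75 in descending and 34.2 ± 11.5 in ascending libraries (SD, n = 4 each). The difference was -2.52 (SE 0.33) with an adjusted p of 0.000435, and no infrarenal library reached the lowest of the others. CAMK2D, the delta subunit, differed by -0.43 (SE 0.11) with an adjusted p of 0.0402, a call lost in 12 of 16 fits without 1 library, with the highest adjusted p, 0.138, without infrarenal replicate 3. PCP4L1, the paralog of PCP4, had large SDs (10.4 ± 7.97, 9.81 ± 6.43, 23.1 ± 19.4 and 7.60 ± 3.25 CPM from infrarenal to ascending, n = 4 each), with a difference of -0.21 (SE 0.58) and an adjusted p of 0.924. CALD1, the calmodulin-binding caldesmon of smooth muscle and the highest of the list, had a difference of 0.19.

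Around PTP4A1, 9 of 10 genes were tested, 4 with positive and 5 with negative differences and a median of -0.06. By edgeR 0 were called, as by DESeq2 and limma voom, and 3 had an unadjusted p under 0.05. Over all genes tested, 2185 of 15926 had an unadjusted p under 0.05 in edgeR. PTP4A2 averaged 171.5 ± 17.9 CPM in infrarenal, 165 ± 20.9 in suprarenal, 171 ± 11.2 in descending and 155 ± 25.6 in ascending libraries (SD, n = 4 each), a difference of 0.07 (SE 0.12) with an adjusted p of 0.871. PTP4A3 averaged 68.4, 46.2, 34.9 and 48.8 CPM in the same order, a difference of 0.67 (SE 0.24) with an adjusted p of 0.197. The infrarenal and other PTP4A3 libraries overlapped. PTP4A1 was picked for its high infrarenal level, so its lack of overlap is not compared with this.

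**Figure D4:**
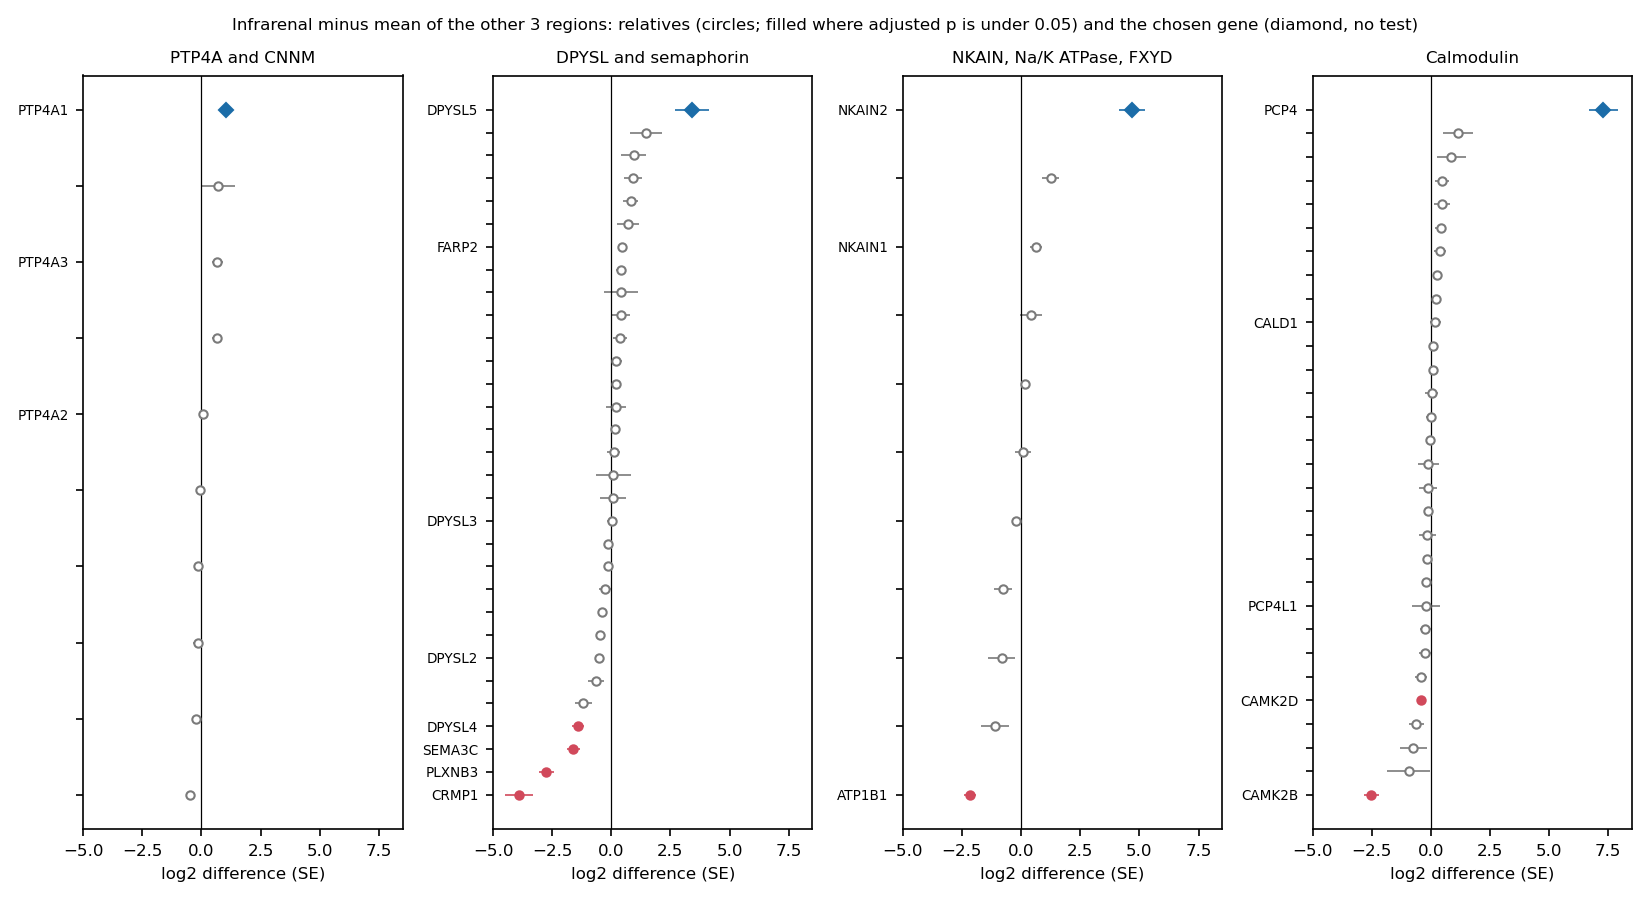
Log2 difference of the infrarenal region from the mean of the other 3 regions (points) with its SE (bars) for relatives and partners tested, grouped by the gene they belong to, with names beside those described here. Filled points passed an adjusted p of 0.05 in edgeR, and blue diamonds are the chosen genes, for which no test is given. The 7 filled points all lie below 0, from -3.91 for CRMP1 to -0.43 for CAMK2D, while the diamonds lie above 0.

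The neighbours of the 4 genes on the chromosome were looked at as well, taking the nearest 2 tested genes on either side in the order of the RefSeq annotation. Of these 16, edgeR called 0 in the infrarenal comparison, as did DESeq2 and limma voom, and 2 had an unadjusted p under 0.05 in edgeR. The latter held for 2185 of all 15926 genes tested, so 2 of 16 is near the share over all genes. Next to PCP4, DSCAM, a cell adhesion molecule of neurons, had a difference of -1.66 (adjusted p = 0.158) and SH3BGR 0.29 (adjusted p = 0.731). Next to NKAIN2, TRDN, which encodes triadin of the sarcoplasmic reticulum, had 1.80 (adjusted p = 0.273) and RNF217 -0.30 (adjusted p = 0.675). The neighbours of PTP4A1 ran from -0.36 (PRIM2) to 0.14 (LOC102141029) and those of DPYSL5 from -0.20 (SLC35F6) to 0.08 (CENPA). The same annotation places 1 gene over each of NKAIN2, PTP4A1 and DPYSL5 and 0 over PCP4, and reads shared with them were not examined.

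PCP4 and DPYSL5 are known best from neurons, and the markers of nerve cells and sheath were therefore set beside them. For all marker counts in the infrarenal comparison, edgeR called 1.37% of all genes tested higher and 1.61% lower. At an unadjusted p under 0.05 it had 2185 of the 15926 genes tested. Lists of 3 to 10 genes are too short for 0 calls to be told from these shares. Of 14 neuronal markers 3 passed the filter, and 0 of these were called in the infrarenal comparison by edgeR, DESeq2 or limma voom, while 2 had an unadjusted p under 0.05 in edgeR (SNAP25 0.91, adjusted p = 0.259, UCHL1 0.74, adjusted p = 0.117, and SYT1 -0.02). The summed neuronal markers ran from 31.6 to 55.2 CPM in infrarenal, 24.1 to 37.9 in suprarenal, 19.1 to 25.8 in descending and 15.2 to 42.4 in ascending libraries, so the infrarenal libraries overlapped the suprarenal and ascending ones and lay above the descending ones. ELAVL3, a neuronal RNA-binding protein, had 2 counts in all, and RBFOX3, a nuclear marker of mature neurons, was at 0 in all 16 libraries. TH and DBH, enzymes of noradrenaline synthesis, together had few counts, with 104 and 55 over infrarenal, 36 and 23 over suprarenal, 11 and 7 over descending and 2 and 4 over ascending libraries. Of the 10 Schwann cell markers 0 were called by edgeR, DESeq2 or limma voom and 2 were lower at an unadjusted p under 0.05 in edgeR, and their sum ran from 570 to 624 CPM in the infrarenal libraries, below the 661 to 925, 652 to 830 and 620 to 900 CPM of the suprarenal, descending and ascending libraries, with overlap only at the lowest ascending value. The part of nerve in the levels of the 4 genes was not tested. Among markers of wall cells, 2 of 7 pericyte genes tested were called higher in the infrarenal region by edgeR, PDGFRB (0.69) and KCNJ8 (0.88), of which limma voom called only PDGFRB. CSPG4 (0.53), NDUFA4L2 (0.62), ABCC9 (0.25) and COX4I2 (0.12) were positive without a call, and RGS5 had a difference of -0.10. The median of the summed pericyte markers was 4004 CPM in infrarenal libraries, 5413 in suprarenal, 5052 in descending and 2444 in ascending ones. That sum mostly follows RGS5, which averaged 3363 CPM over all libraries against 321 for CSPG4, the next highest. Of 8 fibroblast genes edgeR called 1 higher, COL1A1 (1.07), and MFAP5 had -1.52 without a call by edgeR. DESeq2 called 1 fibroblast gene higher, COL1A1, and 1 lower, and limma voom called COL1A1 only. Of 6 mesothelial genes 1 was called lower, KRT8 (-2.67). The part of these cells was not tested either. Of the 8 smooth muscle markers 0 were called by edgeR, with 3 higher at an unadjusted p under 0.05, and DESeq2 called 1 higher, TAGLN. Of the 9 endothelial markers 0 were called by edgeR, DESeq2 or limma voom and 0 had an unadjusted p under 0.05.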

How the data were processed

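Total RNA of 16 aorta libraries was sequenced, and the deposited values are raw read counts per NCBI GeneID, made by the authors with fastp, HISAT2 2.0.5 and featureCounts 1.5.0-p3, per the submitters' processing notes. Neither the build of the genome nor its annotation is stated there. Symbols and gene order came from RefSeq's gene table for assembly MFA8v1.1, which matched 24609 rows (74.9%, holding 97.2% of the counts), and its positions served only to find neighbouring and overlapping genes. The series table was not used. Library files of a region differed from one another beyond sampling noise.

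Genes were filtered with filterByExpr of edgeR 4.0.16 (minimum count 10, minimum total 15), which left 15926 genes and 99.9% of the counts. TMM factors normalized the libraries, which were tested with edgeR's quasi-likelihood test in R 4.3.3, with 1 mean per region and all 16 libraries (12 residual degrees of freedom). Benjamini-Hochberg adjusted p-values over all genes under 0.05 were called. The SE of an edgeR difference was derived from that test, as the absolute difference over the square root of its F statistic, and is approximate. For the 4 chosen genes in the infrarenal comparisons no test is read from it. The alternatives tried were a replicate block, RLE factors, library totals alone, 2 other filters, DESeq2 1.42.0, limma 3.58.1 voom, only the libraries compared, each library left out in turn, and infrarenal replicate 1, ascending replicate 4 and suprarenal replicate 3 left out together. Likeness between genes is Pearson's r of log2 CPM with a prior count of 2. The scripts were tested on simulated data.

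The members and lists were chosen with earlier results of these data known. Named were the 4 genes, their measured paralogs, the called genes and the highest gene of each list, the 5 genes of highest r for each of the 4, and the nearest 2 tested genes on either side. FARP2, SH3BGR, RNF217 and the marker genes named were chosen after their values were seen. Correlations of deviations from region means and ratios without suprarenal replicate 2 were also added after seeing the data. Intervals and floors cover counting error only. No sequence is shown, and a few genes of the lists are counted but not reported here by name.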

Additional observations from a re-analysis of the deposited data

Results flagged for a closer look

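Each group of 4 libraries was examined for a highest or lowest library that stood far from the other 3, over 69 gene and region groups, and 9 were found. Chance flags about 1 in 20 groups. Among the 4 chosen genes, suprarenal replicate 2 was high for NKAIN2 at 27.5 CPM, where the other suprarenal libraries ran from 1.89 to 5.57, and suprarenal replicate 3 was low for PTP4A1 at 33.6 CPM, where the others ran from 58.05 to 59.5.

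Among their relatives, ascending replicate 4 was low for ATP1B1 at 65.8 CPM (others 117 to 121), for SEMA3C at 87.6 CPM (others 221 to 235) and for PCP4L1 at 2.72 CPM (others 9.13 to 9.34). Infrarenal replicate 3 was high for CRMP1 at 3.80 CPM (others 0.617 to 0.849), suprarenal replicate 3 for DPYSL2 at 252 CPM (others 160 to 173), and descending replicate 3 for PTP4A2 at 188 CPM (others 163 to 167) and SEMA3C at 354 CPM (others 248 to 260). Ascending replicate 4 and suprarenal replicate 3 together account for 5 of the 9.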

How the results depend on the processing

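The number of genes called in the suprarenal to ascending comparison was 41 in the main analysis, 184 with DESeq2, 22 with only the libraries compared, 113 without 3 libraries together and 19 to 66 with each library left out, the lowest without ascending replicate 2 and the highest without ascending replicate 4. For the descending to ascending comparison it was 18, and 177 with DESeq2, 9 with limma voom, 30 with only the libraries compared, 141 without the 3 libraries and 7 to 34 with each library left out. For the infrarenal comparison it was 474, and 852 with DESeq2, 1607 without the 3 libraries and 267 to 568 with each library left out. It was 0 between the suprarenal and descending regions in every fit.

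NKAIN2 between the suprarenal and ascending regions was positive throughout and lost its call with limma voom (5.55), with only the libraries compared (6.05) and in 2 of the 16 fits without 1 library (range 4.60 to 6.74). With 2 of 12 tests at its smallest p of 0.0286, the exact permutation test (difference 4.59) could give no call and says nothing of stability. Between the descending and ascending regions it was called with DESeq2 (4.09) and in 1 fit without 1 library (range 3.63 to 4.71). PTP4A1 between the descending and ascending regions ran from -0.069 to 0.0034 and DPYSL5 between the suprarenal and ascending from -0.81 to 2.17 with 1 library left out. PCP4 in the infrarenal comparison ran from 6.79 to 8.20. CRMP1, DPYSL4, PLXNB3, SEMA3C, ATP1B1 and CAMK2B kept their calls in all 24 alternatives. The CAMK2D call was lost with library totals alone (adjusted p = 0.0737) and without a filter (0.0954). The causes were not tested.

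Replicate numbers are shared between regions. Of 24 pairs of libraries with the same number, 19 correlated above 0.1 in deviations from region means (-0.17 to 0.58, median 0.34). The median for other numbers was -0.09, which is lowered in part because deviations within a region cancel out. Of the 16 libraries, 15 lay closest to their own number. The data thus hint at a pairing by number, while the labels neither state nor exclude one. The main fit and the exact permutation test did not use the numbers. With a replicate block, 76 genes were called between suprarenal and ascending, 62 between descending and ascending and 680 in the infrarenal comparison. The block kept the NKAIN2 call between suprarenal and ascending (5.54, adjusted p = 0.00943).

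Levels of PCP4 outside the infrarenal region, of NKAIN2 in the ascending region and of DPYSL5 in several libraries rest on 0 to 5 counts. DESeq2 gave no adjusted p for DPYSL5 between the descending and ascending regions.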
